A study of Mus musculus with 2 samples.

Results

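Ccl2, Ccl7, Ccl8 and Ccl12, 4 CC chemokines that attract monocytes, and the receptor Ccr2 were followed through the cells of 2 mouse tumours. These 5 genes were chosen by symbol from the 34097 genes listed, by a rule that uses no measured value, with earlier results of these data known. Both tumours came from LLC, the mouse Lewis lung carcinoma line, and are labelled as lung cancer xenografts. One was a control, and the other carried a short hairpin RNA against Gfpt2, an enzyme of hexosamine synthesis, and is called the knockdown here. Host strain, sex, age, time of growth and the number of animals behind each tumour are not given in the sources used here. With 1 library of single cells per group there is no replicate spread to judge a difference by, and no test was run. Intervals in parentheses are exact 95% intervals that cover counting error only.

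CCR2 is a receptor coupled to inhibitory G proteins, and it draws inflammatory monocytes out of the bone marrow and into inflamed or tumour tissue. CCL2 and CCL7 are its main ligands in the mouse, CCL12 is a rodent chemokine close to CCL2, and mouse CCL8 is known mainly as a ligand of CCR8. Monocytes that enter a tissue lower Ccr2 as they become macrophages, and macrophages often make these ligands themselves.

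The ligand genes lie together on chromosome 11. In the RefSeq annotation of GRCm38.p6 the coding genes stand in the order Ccl2, Ccl7, Ccl11, Ccl12, Ccl8, Ccl1, while Ccr2 lies on chromosome 9. RefSeq promoter sequences of that build were matched for 3 of the 5 genes, Ccl12, Ccl8 and Ccr2, and none is shown for Ccl2 and Ccl7. The 250 bases before each start are given so that Ccl12 and Ccl8, whose UMIs sat almost wholly in macrophages, can be set beside the receptor gene. Capitals mark matches to the motifs named after the sequences. All 3 are read on the plus strand, at chr11:82101595-82101844, chr11:82114935-82115184 and chr9:124101933-124102182.
Ccl12: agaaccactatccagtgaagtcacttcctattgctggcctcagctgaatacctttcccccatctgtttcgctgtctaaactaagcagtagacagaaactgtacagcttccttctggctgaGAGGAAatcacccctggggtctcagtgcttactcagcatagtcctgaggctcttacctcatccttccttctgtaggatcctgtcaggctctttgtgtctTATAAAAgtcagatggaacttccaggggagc
Ccl8: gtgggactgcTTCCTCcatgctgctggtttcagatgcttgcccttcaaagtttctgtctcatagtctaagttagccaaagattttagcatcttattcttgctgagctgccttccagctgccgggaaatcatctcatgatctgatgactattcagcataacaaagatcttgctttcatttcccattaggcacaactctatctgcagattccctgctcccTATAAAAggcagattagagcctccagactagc
Ccr2: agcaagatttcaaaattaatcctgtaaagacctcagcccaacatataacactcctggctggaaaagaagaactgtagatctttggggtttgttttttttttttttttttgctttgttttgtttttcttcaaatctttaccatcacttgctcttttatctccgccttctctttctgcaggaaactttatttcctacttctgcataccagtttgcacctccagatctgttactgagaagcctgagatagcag

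Both ligand promoters held TATAAAA, the TATA box, at positions -31 to -25 of Ccl12 and -32 to -26 of Ccl8, counted back from the start. Of 32851 promoters of the same length, 4.98% held it on either strand. GAGGAA, the core bound by the myeloid factor PU.1, stood at -130 to -125 of Ccl12 and, on the minus strand, at -240 to -235 of Ccl8, and 23.3% of promoters held it. No match on either strand was found in the 3 windows for the NF-kB motif (GGGNN followed by TTTCC), the interferon response element (GAAANN followed by GAAA), GAS (TTCNNNGAA), AP-1 (TGANTCA) or C/EBP (TTGCNNAA). These are held by 1.41%, 2.98%, 7.02%, 6.75% and 9.56% of promoters. The matches shown do not overlap one another. In a gapped alignment Ccl12 and Ccl8 had 65.8% identical bases among those aligned, against 59.4% for Ccl12 with Ccr2 and 64.4% for Ccl8 with Ccr2.

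After filtering, 10662 control cells with 138972698 unique molecular identifiers (UMIs, the counted molecules) and 11450 knockdown cells with 118549975 UMIs were kept. Their medians were 9371.5 and 7169 UMIs a cell, and the libraries shared 37 cell barcodes. Gfpt2 had 244 control and 68 knockdown UMIs, a log2 ratio of -1.61 (-2.02 to -1.22) after division by all UMIs. Macrophages had at least 10 UMIs of C1qa, C1qb and C1qc per 10000 (3990 control and 4556 knockdown cells), and monocytes at least 20 of Lyz2 and under 5 of C1q per 10000 (144 control and 40 knockdown). T cells had at least 2 UMIs of Cd3d, Cd3e and Cd3g (786 control and 676 knockdown). Tumour-like cells had no Ptprc, under 5 of Lyz2 per 10000 and at least 5000 UMIs (4986 control and 5211 knockdown). A cell could pass more than 1 gate, as 148 control and 179 knockdown cells did. Levels are given as CPM, the UMIs of a gene per 1000000 UMIs of its class and library, and log2 ratios are knockdown over control.

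The labels were checked against markers. In tumour-like cells 7 fibroblast and matrix markers summed to 2524 and 2836 CPM, beside 488 and 488 CPM for 7 markers of the tumour line. In those with collagen, described further on, these sums were 4945 and 4751 CPM beside 342 and 388 CPM. Without collagen the tumour line markers summed to 591 and 587 CPM. In all tumour-like cells Hmga2, Cd44 and Axl stood at 219.7 and 218 CPM, 153 and 158 CPM and 114 and 110.3 CPM in control and knockdown. The epithelial genes Krt7, Krt8, Krt18 and Epcam were near 0 there, the highest being Krt7 at 1.10 and 0.992 CPM. Krt18 had no UMI in the knockdown. The macrophage gate did not hold the same mix in both libraries: the fibroblast markers summed to 299 and 828 CPM and Hmga2 stood at 32.8 and 88.2 CPM. Macrophage results are therefore also given for 2659 control and 2202 knockdown macrophages with under 2 UMIs per 10000 of 8 tumour and matrix genes, called low-signal macrophages, a set chosen after seeing the data. In these the fibroblast sum was 38.9 and 37.5 CPM, Lum had no knockdown UMI, and Hmga2 stood at 4.46 and 3.34 CPM. The 10 macrophage markers summed to 75209.5 and 62354 CPM in the full gate and 81566 and 85392 CPM in the low-signal set. Marker lists of other cells did differ there, with T cell markers at 78.2 and 138 CPM and NK cell markers at 18.6 and 29.1 CPM. The dendritic cell list summed to 15849.6 and 22932 CPM, although Cd209a, a gene of that list, had no control UMI. Whether this sum reflects dendritic cells, here or in other classes, was not tested. The part of these lists in the results was not tested either.

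Ccl2, the prototype ligand of CCR2, was found in tumour-like cells and in macrophages alike. Shares of a gene's UMIs in the library are given for cells of a class that passed no other gate. Of its UMIs, tumour-like cells held 70.2% in the control and 74.7% in the knockdown, beside 74.1% and 73.4% of all UMIs. Macrophages held 21.5% and 18.7%, beside 16.4% and 17.3% of all UMIs. In tumour-like cells Ccl2 stood at 823 CPM (818 to 829) in the control and 1010.0 CPM (1003 to 1017) in the knockdown, a log2 ratio of 0.30 (0.28 to 0.31). In macrophages it stood at 1132 CPM (1119 to 1146) in the control and 1059 CPM (1045 to 1073) in the knockdown, a log2 ratio of -0.10 (-0.12 to -0.072). The macrophage level was the higher of the pair in both libraries, by less in the knockdown. Low-signal macrophages gave 1144 and 1080.5 CPM, a log2 ratio of -0.083 (-0.12 to -0.049). The direction in macrophages was not firm, since weighting every cell equally gave 0.027.

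**Figure D1:**
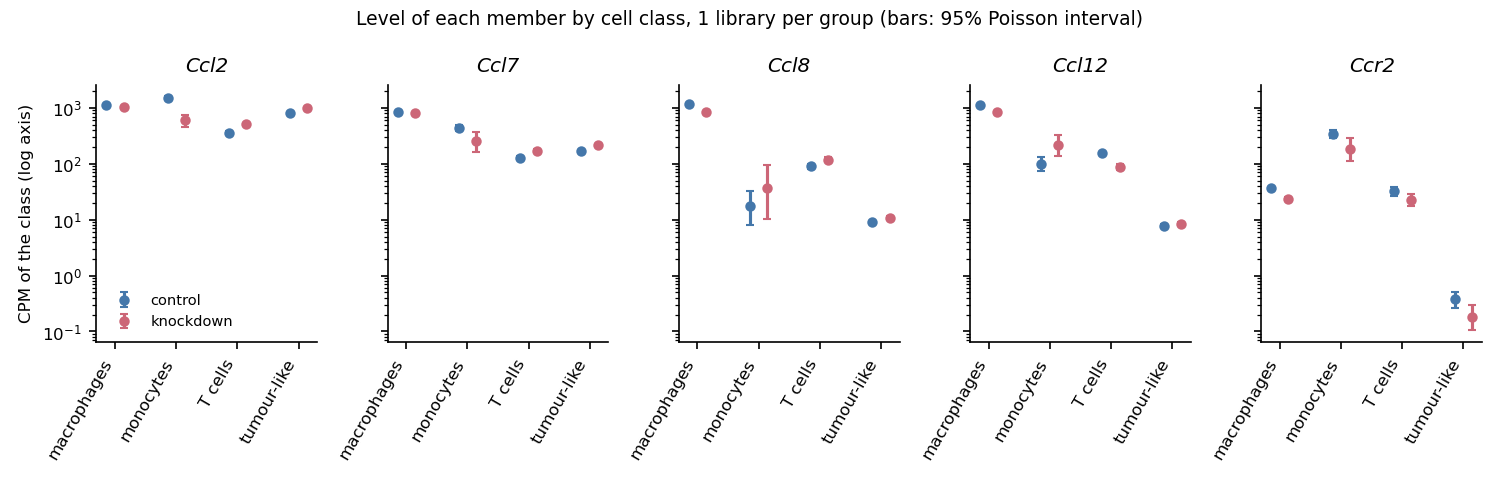
Level of each gene in CPM on a log axis in the 4 gated classes, control in blue and knockdown in red, with exact 95% Poisson intervals. Ccl8 and Ccl12 are far higher in macrophages than in tumour-like cells, Ccl2 is high in both, and Ccr2 is highest in monocytes.

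Ccl7, which binds CCR2 and also CCR1 and CCR3, was divided between the same classes and leaned further to macrophages. Of its UMIs, macrophages in no other gate held 48.9% in the control and 45.0% in the knockdown, and such tumour-like cells held 44.8% and 50.2%. Its level in macrophages was 829 CPM (817 to 840.4) in the control and 814 CPM (802 to 826) in the knockdown, a log2 ratio of -0.026 (-0.056 to 0.0030). That interval includes 0. In low-signal macrophages Ccl7 was higher in the knockdown, with 882 and 1039 CPM, a log2 ratio of 0.24 (0.20 to 0.27). Tumour-like cells had 172 CPM (169 to 175) in the control and 219.7 CPM (217 to 223) in the knockdown, a log2 ratio of 0.35 (0.32 to 0.38). For every 100 Ccl2 UMIs, macrophages outside other gates had 74.3 in the control and 78.1 in the knockdown of Ccl7. Tumour-like cells had 20.9 in the control and 21.8 in the knockdown, so the mix of these ligands differed between the classes in each library.

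Ccl8 and Ccl12 sat in macrophages in both tumours. Of Ccl8 UMIs, macrophages outside other gates held 95.003% in the control and 92.6% in the knockdown, and of Ccl12 UMIs 94.3% and 94.0%. In macrophages Ccl8 stood at 1184 CPM (1171 to 1198) in the control and 840.5 CPM (828 to 853) in the knockdown, a log2 ratio of -0.49 (-0.52 to -0.47). Ccl12 stood at 1137 CPM (1124 to 1151) in the control and 850.0 CPM (838 to 862) in the knockdown, a log2 ratio of -0.42 (-0.45 to -0.39). Both were lower in the knockdown, and by less in low-signal macrophages. There Ccl8 was at 1313 and 1132 CPM, a log2 ratio of -0.21 (-0.25 to -0.18). Ccl12 was at 1244 and 1138 CPM, a log2 ratio of -0.13 (-0.16 to -0.10). In tumour-like cells Ccl8 was at 9.01 and 10.9 CPM and Ccl12 at 7.85 and 8.42 CPM, while the 10 macrophage markers summed to 534 and 658 CPM there, and the part of these in the Ccl8 and Ccl12 values was not tested. With every cell thinned to 2000 UMIs, 42.5% and 39.8% of control and knockdown macrophages had a Ccl8 UMI, against 1.70% and 2.19% of tumour-like cells. For Ccl12 these shares were 56.6% and 48.7% against 1.40% and 2.17%. In low-signal macrophages the shares were 43.6% and 45.0% for Ccl8, so not lower in the knockdown, and 58.1% and 57.4% for Ccl12. Before thinning, macrophages had medians of 5379.5 and 3953.5 UMIs and tumour-like cells 18744 and 14667.

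**Figure D2:**
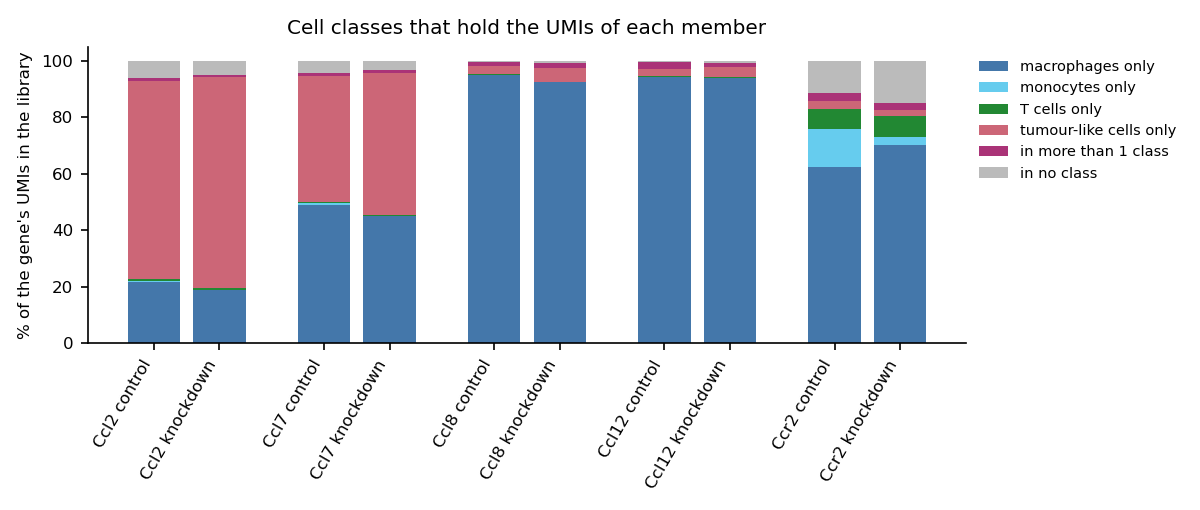
Share of each gene's UMIs held by each gated class, by cells in more than 1 class and by cells in none, with 1 bar per gene and library adding to 100%. Macrophage segments fill nearly all of the Ccl8 and Ccl12 bars, and tumour-like segments fill 70.2% and 74.7% of the Ccl2 bars.

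Among the 4 classes Ccr2, the receptor, was highest in monocytes. It stood at 342 CPM (293 to 396) in the control and 186 CPM (114 to 288) in the knockdown, from 177 and 20 UMIs, a log2 ratio of -0.88 (-1.62 to -0.21). The level in monocytes was 9.34 (7.90 to 10.996) times the macrophage level in the control and 8.05 (4.87 to 12.6) times the macrophage level in the knockdown. Of all Ccr2 UMIs, monocytes in no other gate held 13.3% in the control and 2.92% in the knockdown, beside 0.373% and 0.0866% of all UMIs, while such macrophages held 62.6% and 70.2%. In macrophages Ccr2 was at 36.6 CPM (34.2 to 39.1) in the control and 23.1 CPM (21.2 to 25.3) in the knockdown, a log2 ratio of -0.66 (-0.82 to -0.50). In low-signal macrophages it was at 41.9 and 32.8 CPM, a log2 ratio of -0.35 (-0.55 to -0.16). Tumour-like cells had 39 and 16 Ccr2 UMIs, or 0.376 and 0.183 CPM.

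The monocyte comparison rests on a small and uneven class. Neutrophil markers summed to 1249.6 and 93.1 CPM in control and knockdown monocytes, and S100a9, Retnlg and Cxcr2 had no UMI in the knockdown. Fibroblast markers summed to 191 and 689 CPM, T cell markers to 21.2 and 335 CPM and dendritic cell markers to 5323 and 3212 CPM. Of the 8 dendritic cell markers 6, Flt3 among them, had no UMI in knockdown monocytes, so that sum came from the rest of the list. Macrophage markers summed to 9545 and 11499 CPM, above the 10 monocyte markers, Ccr2 among them, at 6561 and 5577 CPM. The part of these in the results was not tested. Without cells that had S100a8 or S100a9 UMIs, 125 control and 39 knockdown cells were left, and Ccr2 was at 336 and 192 CPM, a log2 ratio of -0.81 (-1.56 to -0.13). Ccl2 in monocytes was at 1508 CPM (1404 to 1618) in the control and 596 CPM (459 to 761) in the knockdown, and at 1481 and 595 CPM without those cells. Its log2 ratio of -1.34 was -3.87 with stricter gates and -0.57 with looser ones, and a single knockdown cell held 22 of its 64 UMIs. Ccl7 was at 436 CPM (381 to 497) in the control and 251 CPM (166 to 366) in the knockdown, a log2 ratio of -0.80 that was -3.09 with stricter gates. From 226 and 27 UMIs of Ccl7, a single cell held 82 in the control and 15 in the knockdown. Ccl12 was higher in the knockdown, at 100.4 CPM (75.0 to 132) in the control and 214 CPM (136 to 321) in the knockdown, but of its 52 and 23 UMIs a single knockdown cell held 15, and its log2 ratio went from 1.09 to 0.24 with stricter gates. Ccl8 had 9 and 4 UMIs.

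Among genes with at least 100 UMIs in 1 library, 1.26% were lower by 1.5-fold or more in knockdown macrophages, and of the 5 members Ccr2 was. That call was lost with Scrublet's own threshold, at a log2 ratio of -0.38, with stricter gates, at -0.57, and with Lyz2 of at least 20 per 10000, at -0.50. The share higher by as much was 10.5%, and none of the 5 was. Scaled by TMM factors, 8.21% higher and 2.59% lower passed, and Ccl8 was among the lower ones at -0.63, as it was with median of ratios at -0.64. In low-signal macrophages 3.57% of genes passed 1.5-fold in either direction and none of the 5 did. The median log2 ratio of the 5 was -0.42 in macrophages, beside 0.10 for all genes tested, and -0.13 in low-signal macrophages, beside 0.00. In tumour-like cells 3.06% of genes passed 1.5-fold and none of the 4 members with enough UMIs did. In monocytes 13.4% of genes were lower by 1.5-fold. Ccl2, Ccl7 and Ccr2 were too, but they reached 100 UMIs through the control library alone, so nothing is read from that count. Scaled by TMM factors, 0.892% higher and 29.7% lower passed in monocytes.

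**Figure D3:**
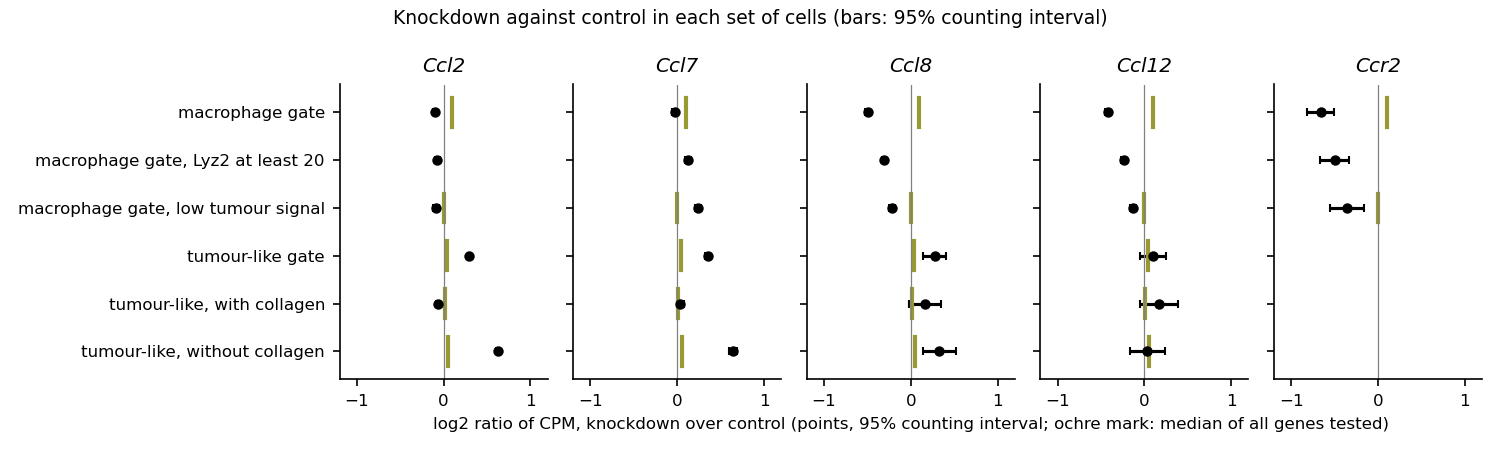
Log2 ratio of knockdown to control CPM for each gene in the macrophage gate, in 2 restricted macrophage sets, in the tumour-like gate and in tumour-like cells with and without collagen, with exact 95% counting intervals and the median of all genes tested in ochre where it was computed; Ccr2 is not drawn in tumour-like cells, where it had too few UMIs. The Ccl8, Ccl12 and Ccr2 points lie closer to 0 in the low-signal set than in the full gate, and the Ccl7 point lies on the other side of it.

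In tumour-like cells the difference in Ccl2 and Ccl7 varied with collagen. These cells were divided by Col1a1, Col1a2 and Col3a1, genes of fibrillar collagen, at 10 UMIs per 10000. With collagen (2417 control and 2931 knockdown cells), Ccl2 was at 1084 CPM (1074 to 1094) in the control and 1035 CPM (1026 to 1045) in the knockdown, a log2 ratio of -0.067 (-0.085 to -0.048). Without collagen (2569 control and 2280 knockdown), it was at 639 CPM (633 to 645) in the control and 985 CPM (975 to 994) in the knockdown, a log2 ratio of 0.62 (0.60 to 0.64). Ccl7 was at 244 and 251 CPM with collagen, and at 121 CPM (118 to 124) in the control and 189 CPM (185 to 193) in the knockdown without it, a log2 ratio of 0.64 (0.60 to 0.69). In the control, cells with collagen had more of both ligands, and in the knockdown that gap was smaller. Ccl2 and Ccl7 passed 1.5-fold in cells without collagen, where 2.05% of genes were higher by as much. Both calls were lost with TMM factors, at log2 ratios of 0.55 and 0.56, and with median of ratios, at 0.54 and 0.56. None of the 4 members with enough UMIs passed in cells with collagen, where 2.07% of genes passed in either direction.

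The same cells were split by Mki67 and Top2a, genes of dividing cells. Without collagen, Ccl2 was at 646 and 1009.7 CPM in cells with at least 2 of these UMIs and at 613 and 904 CPM in cells with none. Ccl7 was at 116 and 186 CPM and at 126 and 174 CPM. The knockdown was the higher library in both, but in non-dividing cells neither ligand passed 1.5-fold, at log2 ratios of 0.56 (0.51 to 0.61) and 0.46 (0.36 to 0.57). Without cells that had UMIs of Krt16, a keratin, Ccl2 was at 661 and 984 CPM, a log2 ratio of 0.57 (0.55 to 0.59) that was also short of 1.5-fold. In cells without collagen fibroblast markers summed to 817 and 916 CPM and macrophage markers to 530.1 and 646 CPM, and their part in the result was not tested. Cxcl10, an interferon-induced chemokine, was at 197 and 414 CPM there, a log2 ratio of 1.07. Of the 10 genes of its type I interferon list, 4 were higher by 1.5-fold without collagen, beside 2.05% of all genes tested there. With collagen 0 were, beside 1.73% of all genes, though 9 of the 10 had a log2 ratio above 0. The medians of the list were 0.56 without and 0.21 with collagen, beside 0.053 and 0.011 for all genes tested.

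In the T cell gate the direction of Ccl2 depended on which cells were kept. Ccl2 was at 362 CPM (344 to 381) in the control and 519 CPM (494 to 545) in the knockdown. Of its 1508 and 1578 UMIs, single cells held 222 and 204. Macrophage markers summed to 6263 and 7367 CPM, fibroblast markers to 1054 and 869 CPM and dendritic cell markers to 1562 and 2578 CPM. Their part in the result was not tested. In 388 control and 341 knockdown T cells outside the macrophage gate with low tumour and matrix signal, macrophage markers summed to 1213 and 974 CPM. There Ccl2 was at 72.0 CPM (58.0 to 88.3) in the control and 46.7 CPM (34.3 to 62.1) in the knockdown, so the order turned. Ccr2 in these cells was at 54.0 CPM (42.0 to 68.3) in the control and 36.8 CPM (25.9 to 50.7) in the knockdown, a log2 ratio of -0.55 (-1.17 to 0.043). NK cell markers summed to 853 and 499 CPM in them and 517 and 248 CPM in the full gate, and their part in the Ccr2 values was not tested. In the full gate Ccl7 was at 129 and 171 CPM, Ccl8 at 91.3 and 119 CPM and Ccr2 at 32.2 and 22.4 CPM. Of 380 and 361 Ccl8 UMIs, 317 and 321 sat in cells that also passed the macrophage gate, and single cells held 137 and 81. In T cells of no other gate Ccl8 had 62 and 27 UMIs, a log2 ratio of -0.74 (-1.44 to -0.062), so its direction turned. Ccl12 was at 153 and 88.1 CPM, and of its 639 and 268 UMIs a single control cell held 212. Cells that also passed the macrophage gate held 587 and 244 of these UMIs, and T cells of no other gate 45 and 21. In the full gate Ccl12 was the only one of the 5 lower by 1.5-fold, beside 1.08% of all genes, or 1.18% higher and 1.77% lower with TMM factors. That call was lost with looser gates, at -0.51, with every cell weighted equally, at -0.48, and in the low-signal T cells, at -0.49, and its ratio was -1.80 with Scrublet's own threshold.

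Along the C1q level, which separates the monocyte and macrophage gates, Ccr2 was highest where Ccl8 was lowest. In control cells with at least 20 Lyz2 UMIs per 10000, Ccr2 was at 417 CPM with no C1q, 299 under 5, 348 from 5 to 10, 216 from 10 to 20, 73.0 from 20 to 50 and 36.8 from 50 up. In the knockdown the same bins had 176, 195, 74.0, 32.4, 14.6 and 28.2 CPM, and those under 5 and from 5 to 10 held only 14 and 19 cells. Ccl8 in the control was at 15.8 CPM with no C1q, 185 from 20 to 50 and 1395 from 50 up. In the knockdown it was at 58.7, 288 and 1167 CPM in these bins. Ccl12 in the last bin was at 1264 and 1125 CPM, and Ccl7 at 889 and 1013 CPM. Ccl2 had no such order in the control, with 1926 CPM under 5 and 1134 CPM from 50 up.

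**Figure D4:**
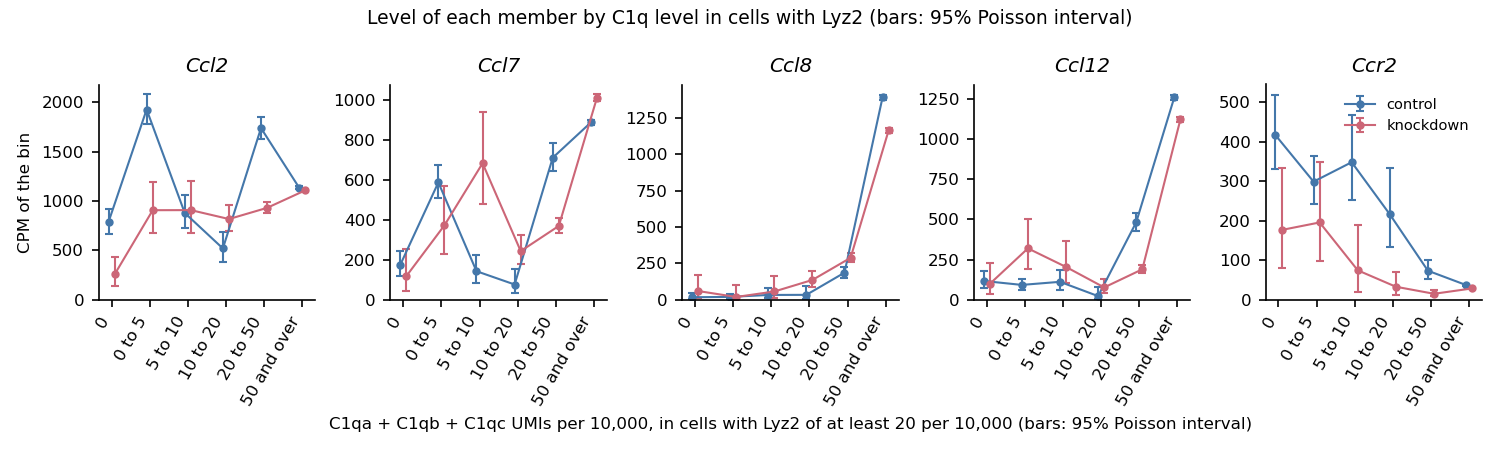
CPM of each gene in cells with at least 20 Lyz2 UMIs per 10000, binned by C1q UMIs per 10000, control in blue and knockdown in red, with exact 95% Poisson intervals and an axis of its own per gene. Ccr2 goes from 417 CPM to 36.8 CPM across the control bins, and Ccl8 and Ccl12 are highest in the last bin.

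Within macrophages the ligands were uneven from cell to cell. The top 10% of cells held 51.6% and 49.3% of Ccl2 UMIs in control and knockdown, 52.9% and 56.1% of Ccl7, 55.4% and 59.7% of Ccl12 and 70.7% and 72.1% of Ccl8. After thinning to 2000 UMIs, 10.96% of control and 10.02% of knockdown macrophages had none of the 4 ligands, and 14.003% of control and 12.3% of knockdown macrophages had all 4. Ccl7 and Ccl12 were found in the same cell 1.25 and 1.25 times as often as the product of their shares, and Ccl2 and Ccl7 1.22 and 1.16 times. Ccl8 and Ccr2 were found together 0.581 and 0.571 times as often, in 46 and 30 cells. In low-signal macrophages this ratio was 0.637 and 0.502, from 40 and 19 cells.

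**Figure D5:**
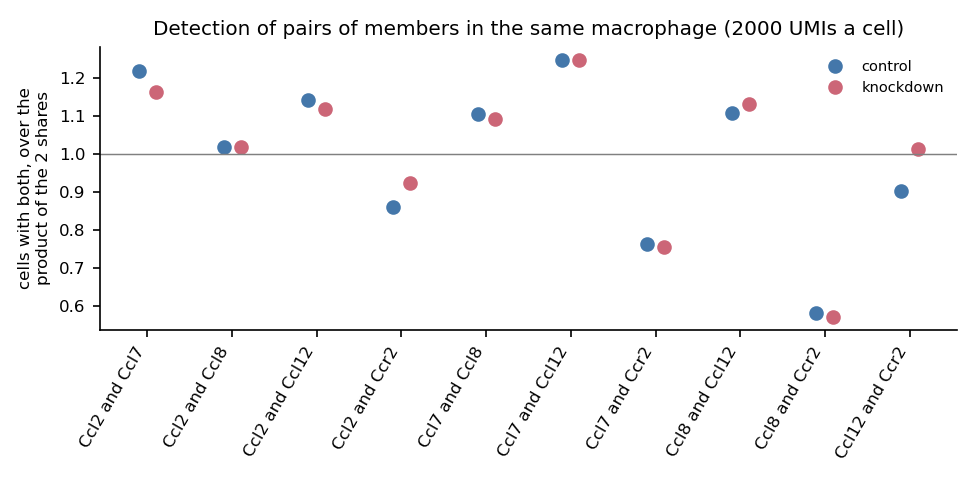
Share of macrophages with UMIs of both genes of a pair over the product of the 2 single shares, after thinning each cell to 2000 UMIs, with 1 point per gene pair and library and a line at 1. Pairs of Ccl2, Ccl7 and Ccl12 lie above 1, and Ccl8 with Ccr2 lies lowest.

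The genes most like each member were ranked by the lower of the 2 libraries' Pearson r over cells, given here for control and knockdown as a description, since cells share library and depth. For Ccl2 in macrophages they were Ccl7 (0.54 and 0.42), Gm17268 (0.34 and 0.30), Ccl12 (0.44 and 0.30), Ccl4 (0.32 and 0.29) and Cxcl10 (0.23 and 0.21). Gm17268 is annotated across Ccl2 on the opposite strand, and use of strand in the counting is not given in the sources used here, so how far the UMIs of these genes were kept apart is not known. For Ccl7 they were Ccl12 (0.49 and 0.42), Ccl2 (0.54 and 0.42), Ccl4 (0.30 and 0.34), C1qa (0.30 and 0.29) and C1qc (0.32 and 0.29), and for Ccl12 Ccl7 (0.49 and 0.42), C1qc (0.37 and 0.39), C1qb (0.37 and 0.38), C1qa (0.36 and 0.40) and Fcer1g (0.35 and 0.36). For Ccl8 they were Apoe (0.42 and 0.36), Lyz2 (0.35 and 0.35), Wfdc17 (0.35 and 0.30), C1qa (0.33 and 0.29) and C1qc (0.30 and 0.28). The C1q genes also defined the gate. For Ccr2 in monocytes, over 144 and 40 cells, they were H2az1 (0.44 and 0.60), Ifi30 (0.37 and 0.58), Ciao2a (0.34 and 0.44), Acat1 (0.34 and 0.42) and Arpc1b (0.33 and 0.46).

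Other genes of the axis were read from lists. Ccr1, a receptor of Ccl7, was at 125 and 88.6 CPM in macrophages, a log2 ratio of -0.50, and at 138 and 120.4 CPM in low-signal ones. Of 12 genes of CCR2 signalling none passed 1.5-fold in macrophages or in low-signal macrophages, with medians of -0.038 and 0.025. Of all genes, 11.7% and 3.57% passed in either direction, with medians of 0.10 and 0.00. Of 9 genes of adhesion and passage through the vessel wall, 8 had enough UMIs and none passed 1.5-fold in either set, with medians of -0.28 and -0.11 beside the same shares and medians of all genes. Itgb2, an integrin chain, was at 86.4 and 60.1 CPM, and at 94.6 and 80.2 CPM in low-signal ones.

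Of 8 inflammatory monocyte genes, 7 had enough UMIs in macrophages, where 4 were lower and 1 higher by 1.5-fold, beside 1.26% and 10.5% of all genes. In low-signal macrophages 2 of 6 were lower, beside 2.16% of all genes. Chil3 in both sets and Hp in the full gate reached 100 UMIs through the control library alone, so nothing is read from these counts. Chil3, a chitinase-like protein of monocytes and neutrophils, was at 31.8 and 2.97 CPM in macrophages and 33.8 and 1.01 CPM in low-signal ones. Ly6c2, a surface protein of inflammatory monocytes, was at 27.0 and 11.5 CPM and 27.0 and 16.4 CPM. Of 5 neighbouring CC chemokines with enough UMIs, none was higher and 1, Ccl9, was lower by 1.5-fold in macrophages, and 1, Ccl4, was higher and none lower in low-signal macrophages. Ccl4 was at 2118 and 2693 CPM in the full gate and 2279.9 and 3531 CPM in low-signal macrophages, log2 ratios of 0.35 and 0.63. Ccl9 was at 75.5 and 50.1 CPM and 81.8 and 67.6 CPM. Of 10 genes of the type I interferon response, 3 were higher by 1.5-fold in macrophages, 4 in low-signal macrophages and 3 in tumour-like cells. The share of all genes higher by as much was 10.5% in macrophages, 1.41% in low-signal macrophages and 2.33% in tumour-like cells. The interferon medians were 0.45, 0.57 and 0.45, beside 0.10, 0.00 and 0.042 for all genes tested.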

How the data were processed

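The deposited files hold raw UMI counts for each gene in each cell. They came from Cell Ranger, version 6.1.0 per the file headers and 3.1.0 per the submitters' processing notes. Build and annotation are not given in the sources used here. Cells with under 200 genes or over 20% mitochondrial UMIs were left out. The highest Scrublet scores were then removed at 0.8% per 1000 cells (1148 control, 1322 knockdown). Scrublet's own threshold, used as an alternative, called 1089 control cells (9.09%) and 2808 knockdown cells (21.8%) doublets. Python 3.11.15, scanpy 1.11.5, scipy 1.17.1 and edgeR 4.0.16 (TMM factors) were used. CPM is the summed UMIs of a gene over all UMIs of a class and library. CPM has exact Poisson, shares Clopper-Pearson and ratios exact conditional intervals at 95%. Ratios were checked on simulated Poisson counts, which hold no spread between cells or libraries, so that check covers counting error only. The genes and lists were chosen with earlier results of these data known. Named list genes were at most the 3 highest and 3 lowest per class, and the genes most like a member were the top 5 detected in at least 5% of cells. One gene of the lists is not reported here.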

Additional observations from a re-analysis of the deposited data

Results flagged for a closer look

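Each of these values was singled out because a gene lay above 0 in one set of cells and below 0 in another, with counting intervals that exclude 0 and at least 100 UMIs in each library. The pairs compared were those of the 4 classes, and tumour-like cells with and without collagen. The difference between the sets was not tested, since there was 1 library per group. For Ccl2 the log2 ratio of knockdown to control was -0.10 in macrophages, 0.52 in T cells and 0.30 in tumour-like cells. Within tumour-like cells it was -0.067 with collagen and 0.62 without. For Ccl8 it was -0.49 in macrophages, 0.38 in T cells and 0.28 in tumour-like cells, where its level was 9.01 and 10.9 CPM. The 10 macrophage markers summed to 534 and 658 CPM in those tumour-like cells, and their part in the Ccl8 value was not tested. In T cells with low tumour and matrix signal the values were -0.62 for Ccl2 and -0.85 for Ccl8.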

How the results depend on the processing

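No paired analysis was possible because each group had 1 library. Scrublet's own threshold was uneven between the libraries, calling 1089 control and 2808 knockdown cells doublets. Values are log2 ratios of knockdown to control unless they are counts of genes, and the cause of each change was not tested. The low-signal sets and those with Lyz2 of at least 20 per 10000 or without Krt16, S100a8 or S100a9 UMIs, the scalings of cells without collagen and the counts in each direction under TMM were chosen after seeing the data. Ccl2 in macrophages went from -0.10 to -0.063 with no doublet removal, -0.042 with Scrublet's own threshold, -0.063 with all barcodes, 0.027 with equal cell weights (reversed), -0.24 with TMM, -0.24 with median of ratios and -0.042 thinned. Ccl7 in macrophages went from -0.026 to 0.22 with Scrublet's own threshold, 0.036 with stricter gates, 0.056 with equal cell weights, -0.17 with TMM, -0.17 with median of ratios, 0.046 thinned, 0.12 with Lyz2 and 0.24 in low-signal cells. Ccl8 in macrophages went from -0.49 to -0.40 with no doublet removal, -0.19 with Scrublet's own threshold, -0.40 with all barcodes, -0.43 with stricter gates, -0.41 with equal cell weights, -0.63 with TMM, -0.64 with median of ratios, -0.45 thinned, -0.31 with Lyz2 and -0.21 in low-signal cells. Ccl12 in macrophages went from -0.42 to -0.36 with no doublet removal, -0.11 with Scrublet's own threshold, -0.36 with all barcodes, -0.35 with stricter gates, -0.32 with equal cell weights, -0.56 with TMM, -0.56 with median of ratios, -0.38 thinned, -0.24 with Lyz2 and -0.13 in low-signal cells. Ccr2 in macrophages went from -0.66 to -0.38 with Scrublet's own threshold, -0.50 with Lyz2 and -0.35 in low-signal cells. Ccl2 in T cells went from 0.52 to -0.035 with no doublet removal (reversed), -0.28 with Scrublet's own threshold (reversed), -0.035 with all barcodes (reversed) and -0.62 in low-signal cells (reversed). Ccl7 in T cells went from 0.41 to -0.33 with Scrublet's own threshold (reversed). Ccl8 in T cells went from 0.38 to -0.11 with no doublet removal (reversed), -1.80 with Scrublet's own threshold (reversed), -0.11 with all barcodes (reversed), -0.74 with exclusive classes (reversed), -0.016 thinned (reversed) and -0.85 in low-signal cells (reversed). Ccl2 in tumour-like cells went from 0.30 to 0.24 with Scrublet's own threshold, 0.34 with stricter gates, 0.23 with equal cell weights, 0.26 without mitochondrial and ribosomal genes, 0.23 with TMM, 0.23 with median of ratios, 0.23 thinned and 0.26 without Krt16 cells. Ccl7 in tumour-like cells went from 0.35 to 0.39 with stricter gates, 0.23 with equal cell weights, 0.32 without mitochondrial and ribosomal genes, 0.29 with TMM, 0.29 with median of ratios, 0.15 thinned and 0.31 without Krt16 cells. Ccl2 in tumour-like without collagen went from 0.62 to 0.55 with TMM and 0.54 with median of ratios. Ccl7 in tumour-like without collagen went from 0.64 to 0.56 with TMM and 0.56 with median of ratios. Genes past 1.5-fold in macrophages went from 1263 to 2551 with at least 20 UMIs and 5625 with 1 UMI in both. Genes past 1.5-fold in monocytes went from 130 to 1446 with at least 20 UMIs and 5014 with 1 UMI in both. Genes past 1.5-fold in T cells went from 189 to 1021 with at least 20 UMIs and 3310 with 1 UMI in both. Genes past 1.5-fold in tumour-like cells went from 379 to 1318 with at least 20 UMIs and 4450 with 1 UMI in both. Other values, with their range over 12 alternatives, were Ccl2 in monocytes -1.34 (-3.87 to -0.57), Ccl7 in monocytes -0.80 (-3.09 to -0.25), Ccl12 in monocytes 1.09 (0.24 to 1.24), Ccr2 in monocytes -0.88 (-1.35 to -0.54), Ccl12 in T cells -0.80 (-1.80 to -0.48), Ccr2 in T cells -0.53 (-0.77 to -0.17), Ccl8 in tumour-like cells 0.28 (0.21 to 0.40), Ccl12 in tumour-like cells 0.10 (0.031 to 0.62) and Ccr2 in tumour-like cells -1.04 (-1.65 to -0.94). None of these changed sign. The full ranges in T cells were Ccl2 in T cells 0.52 (-0.62 to 0.65), Ccl7 in T cells 0.41 (-0.33 to 0.86) and Ccl8 in T cells 0.38 (-1.80 to 0.42). TMM lowered each macrophage ratio by 0.14 and each monocyte ratio by 0.31. The 20 knockdown Ccr2 UMIs in monocytes limit that ratio to -1.62 to -0.21.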

Other observations

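Small sets of other leukocytes also held Ccr2. In 35 control and 39 knockdown NK cells, gated on Ncr1 and Klrb1c without Cd3, it was at 159 CPM (111 to 219.8) in the control and 237 CPM (176 to 312) in the knockdown, from 36 and 51 UMIs. Macrophage markers summed to 709.9 and 1180 CPM in them, monocyte markers to 723 and 1208 CPM and fibroblast markers to 119 and 562 CPM. The monocyte list also summed to 964 and 1287 CPM in tumour-like cells, and Chil3 and F13a1 had no UMI in either NK set. The part of these markers in the Ccr2 values was not tested. In 26 control and 31 knockdown cells gated on Flt3 and H2-Ab1, genes of dendritic cells, it was at 95.4 CPM (59.0 to 146) in the control and 19.4 CPM (7.12 to 42.2) in the knockdown, from 21 and 6 UMIs. The same cells had 3 and 182 Ccl2 UMIs and 4 and 17 Ccl7 UMIs, and whether the sets hold alike cells was not tested. Among cells in no class, 329 control and 593 knockdown cells met the tumour-like gate except for depth, and Ccl2 in them was at 487 CPM (440.2 to 538) in the control and 715 CPM (675 to 757) in the knockdown. In the other unclassed cells Ccl2 was at 931 and 775 CPM.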
